A study of Mus musculus with 4 samples.

Results

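Known splice junctions that cross very long introns were followed in fetal liver cells of 2 wild-type mice (WT) and 2 mice labelled hnRNP L -/- (KO). A junction was taken as a member when it is marked as known and its end lies 50000 bases or more beyond its start. This rule gave 3100 of 186874 known junctions, or 1.66%, in 1737 genes. Their lengths ran from 50008 to 996016 bases with a median of 80508, against a median of 1367 over all known junctions. Of the members, 1455 had no read in any library, 767 had 1 to 9 reads over the 4 libraries and 878, in 649 genes, had 10 or more.

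RNA was depleted of ribosomal RNA and sequenced from 1 library per mouse, and reads across each junction were counted by the authors. Both groups are mice of the stated genotype, and for these samples the labels name neither the embryonic day nor the deleted exons nor a driver of the deletion. C57BL/6, LckCre transgenic, tdTomato-EGFP reporter and CD45.1 mice are named among the animals kept, without saying which alleles the 4 sampled mice carried. Nothing states whether mice of a group were littermates, so it is not known how far the libraries count as independent replicates. Each p-value sets the difference between KO and WT against the variation among these 4 libraries. Where 4 values of a gene or junction follow each other, they stand for WT replicate 1, WT replicate 2, KO replicate 1 and KO replicate 2.

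An intron is removed when the spliceosome joins the 5′ splice site (donor) of the upstream exon to the 3′ splice site (acceptor) of the downstream exon. In a very long intron these sites lie far apart and the polymerase has to copy the whole intron before the acceptor exists. Such introns are common in large genes of adhesion proteins, receptors and transcription factors. hnRNP L is an RNA-binding protein that prefers CA-rich RNA and can favour or hinder the use of nearby splice sites. Fetal liver makes most blood cells before birth, chiefly red cell precursors, and holds hepatocytes as well.

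The exon sequences joined by the most-read members with a coding match are shown first, since reads over these joins are what was counted. Each line gives the last 25 bases of the upstream exon in lower case and the first 25 bases of the downstream exon in capitals, in the direction of the transcript. Sequences are from GENCODE M21 transcripts (GRCm38), matched by gene, chromosome, strand and intron length. The positions are those of the deposited junction table, and the sources used here do not give its genome build.
Gpc3 intron 2 (X, 49782311 to 49935974, minus strand): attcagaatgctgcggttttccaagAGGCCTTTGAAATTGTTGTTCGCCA
Gpc3 intron 6 (X, 49668173 to 49718899, minus strand): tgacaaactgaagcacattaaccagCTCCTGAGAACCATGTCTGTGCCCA
Reln intron 1 (5, 21792821 to 21849998, minus strand): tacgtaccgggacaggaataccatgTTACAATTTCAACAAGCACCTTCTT
Reln intron 2 (5, 21733478 to 21792711, minus strand): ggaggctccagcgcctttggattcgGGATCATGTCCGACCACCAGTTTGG
Reln intron 3 (5, 21677098 to 21733343, minus strand): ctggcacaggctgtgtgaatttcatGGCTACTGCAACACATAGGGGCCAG
Cfdp1 intron 5 (8, 114303309 to 114354770, minus strand): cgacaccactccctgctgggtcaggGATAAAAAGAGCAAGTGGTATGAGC
Prim2 intron 7 (1, 33590208 to 33685240, minus strand): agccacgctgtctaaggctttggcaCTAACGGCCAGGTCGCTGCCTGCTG
Chchd3 intron 4 (6, 32842375 to 32918201, minus strand): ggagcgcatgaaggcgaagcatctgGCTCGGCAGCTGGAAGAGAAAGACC
Slc25a21 intron 4 (12, 57876379 to 57959014, minus strand): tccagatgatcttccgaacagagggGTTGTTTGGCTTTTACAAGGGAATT
All 9 of these joins lie within coding sequence. Of the 878 members with 10 or more reads, 855 had a GENCODE match.

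Of 4875332, 8624429, 7150406 and 6941562 reads on known junctions, 12878, 23164, 19789 and 20929 lay on long introns. WT replicate 1 stood apart in its reads on unannotated (putative) junctions, which made up 3.03% of its junction reads against 0.643% to 0.725% in the other 3. KO replicate 2 differed in sex from the other 3 libraries, with 55.4 counts per 1000000 reads (CPM) of the Y-linked gene Ddx3y against 0.104 to 0.252. Hnrnpl, the targeted gene, was at 460 and 603 CPM in WT and 280 and 269 CPM in KO with a log2 change of -0.95 (SE 0.16, adjusted p = 0.0114 in edgeR's quasi-likelihood test). Transcript thus remained in the KO libraries. It has no long intron.

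Long introns differed from other known junctions in where they lie in the gene. Among matched junctions with 10 or more reads, 46.1% of the long ones were the first intron of at least 1 GENCODE transcript, against 21.0% of the others. Such an intron can have a later number in the transcript used for its sequence. They lay within the 5′ untranslated region in 14.9% of cases against 3.77%, and within coding sequence in 84.2% against 95.4%. At least 1 splice site was shared with another known junction of 10 or more reads for 56 members (6.38%, against 2.42% of others). Their share of the detected junctions was highest on chromosome 13 (67 of 3675, 1.82%) and lowest on chromosome 7 (31 of 6783, 0.457%). These are descriptions of the annotation and the detected set.

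The bases at the joins resembled those of shorter introns. The upstream exon ended in AG for 56.8% of the matched members and 56.2% of the other junctions. The motif ACACAC, one of many CA-rich words that hnRNP L can bind, was searched on the transcript strand in the 50 exon bases on each side, and it occurred in 16 of 847 members (1.89%) against 2.25% of the others. Bases of the intron itself were not read. Coding introns that split a codon after its first base made up 39.3% of the members and 30.4% of the others, and introns between codons made up 42.4% and 47.0%.

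Fewer of the longer introns were detected. Of junctions across less than 1 kb, 58.4% had 10 or more reads, of those across 50 to 100 kb 34.2%, and of those across 100 kb and over 17.6% (194 of 1101). At the 50000-base threshold, the members just inside were Gvin1_dup1 (50008 bases, 12 reads), Rabgap1l (50018 bases, 96 reads) and Mipol1 (50082 bases, 10 reads). The junctions just outside were AI480653 (49980 bases, 26 reads), Xrcc4 (49964 bases, 26 reads) and Gvin1_dup2 (49961 bases, 14 reads). Names ending in dup mark genes listed at several places, whose reads may be split between copies.

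Within the same gene, a long junction was typically crossed by fewer reads than its neighbours. The reads of each junction were divided by the median of the other tested junctions of its gene, where the gene had at least 3 others with a median of 40 reads. This ratio had a median of 0.790 over 371 members, with quartiles of 0.412 and 1.39, against 0.959 over 68917 junctions of every length. The median of the members was 0.778, 0.842, 0.786 and 0.760 in the 4 libraries, so the WT and KO ranges overlapped. By length the median fell from 0.981 under 1 kb to 0.809 at 20 to 50 kb, 0.814 at 50 to 100 kb and 0.718 at 100 kb and over (64 junctions). Single libraries did not all keep this order: the longest class was at 1.05 in WT replicate 1 and at 0.787 in KO replicate 1, no lower there than at 50 to 100 kb, and in WT replicate 2 the median was 0.808 at 20 to 50 kb and 0.842 at 50 to 100 kb. Among the members, introns that are first in at least 1 transcript had a median of 0.746 (176 junctions) and later introns one of 0.789 (189 junctions). For first and later introns of every length, defined in the same way, it was 0.895 and 0.978.

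**Figure D1:**
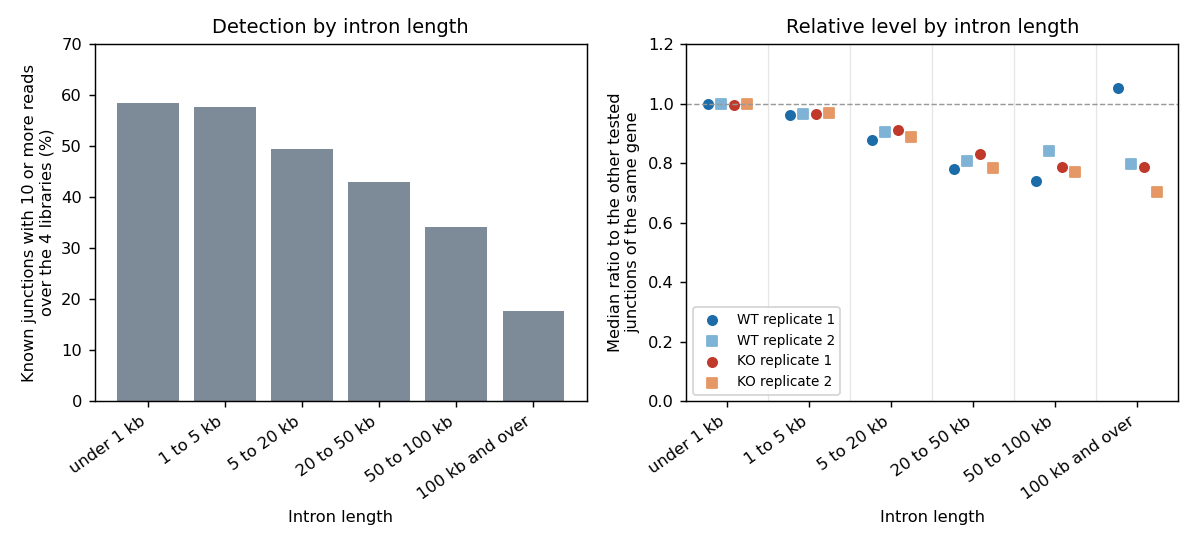
Left, the percent of known junctions of each intron length with 10 or more reads over the 4 libraries. Right, the median ratio of a junction's reads to the median of the other tested junctions of its gene, 1 point per library. Detection fell from 58.4% under 1 kb to 17.6% at 100 kb and over, and the ratios fell in every library from under 1 kb to 20 to 50 kb, with no common order beyond.

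Individual members spanned a wide range around that median. Among members with 100 or more reads, Xpo7 (59079 bases), an export receptor gene, lay at 0.184 of its neighbours and Mbnl1 (65790 bases), which encodes a splicing regulator, at 0.256. At the other end, Foxp1 (86890 bases) carried 12.7 times and Zdhhc14 (154212 bases) 7.57 times the median of the other junctions. Both kinds were thus found among well-covered members, and no single isoform was followed here.

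A small number of genes supplied much of the signal. Gpc3 held 7.55%, Epb4.1 4.37% and Reln 3.24% of the 76760 reads on long introns, and the 20 genes with most reads held 34.7%. Of the members, 159 had 100 or more reads.

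Gpc3 encodes glypican-3, a heparan sulphate proteoglycan on the cell surface that is abundant in fetal liver. Its intron of 50726 bases had 522 and 1035 reads in WT and 1271 and 1520 in KO. That was 30.7% ± 2.13 of the gene's junction reads in WT and 31.1% ± 5.22 in KO (SD, n = 2). The WT and KO ranges overlapped. Its second intron, of 153663 bases, had 154, 339, 490 and 465 reads, or 9.57% ± 1.37 of the gene's reads in WT and 10.6% ± 0.0565 in KO (SD, n = 2). More reads crossed both introns in KO while their share of the gene stayed close to WT, and the level of Gpc3 itself rose from 490 ± 19.7 to 786 ± 62.4 CPM (SD, n = 2), a log2 change of 0.68 (SE 0.14, edgeR, adjusted p = 0.0193).

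Reln encodes reelin, a large secreted matrix glycoprotein, and its first 3 introns are all long. The first, of 57177 bases, had 193 and 311 reads in WT and 484 and 552 in KO, the second, of 59233 bases, 72, 193, 221 and 201, and the third, of 56245 bases, 48, 48, 86 and 81. Reads fell from the first to the third in every library. The first was 4.43% ± 0.115 of the gene's junction reads in WT and 4.64% ± 0.131 in KO (SD, n = 2), 2 ranges that did not overlap but lay within a log2 difference of 0.07 (SE 0.31). The level of the gene rose from 678 ± 10.9 to 1147 ± 84.3 CPM (SD, n = 2), a log2 change of 0.76 (SE 0.15, edgeR, adjusted p = 0.0164). The calls on Gpc3 and Reln were both lost without either WT library, with adjusted p up to 0.102 and 0.081.

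Red cell membrane genes were among the other well-covered hosts. Epb4.1 encodes protein 4.1, which ties spectrin and actin to the red cell membrane, and its intron of 67759 bases, which joins noncoding exons in the matched transcript, had 625, 1187, 743 and 773 reads. Its share of the gene was 10.9% ± 0.754 in WT and 10.3% ± 0.317 in KO (SD, n = 2). Spnb1, the red cell beta spectrin gene, had 116, 229, 154 and 138 reads across 59957 bases. Neither usage difference passed the test.

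The level of Spnb1 was lower in KO, with a log2 change of -0.68 (SE 0.15, edgeR, adjusted p = 0.0223). This call was lost when either WT library or KO replicate 2 was left out, and the summed erythroid markers given below were lower in the same 2 libraries. For Epb4.1 the log2 difference was -0.35 (SE 0.16, edgeR, adjusted p = 0.145).

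The remaining most-read members had closely similar shares in the genotypes. Raly, which encodes a member of the hnRNP family, had 238, 391, 280 and 179 reads across its first intron of 65721 bases. Cfdp1, a chromatin protein gene, had 181, 328, 269 and 208, and Prim2, the large subunit of DNA primase, had 177, 423, 157 and 194. Chchd3, a mitochondrial inner membrane protein gene, had 161, 355, 180 and 212, Ptpra, a receptor phosphatase gene, 238, 242, 212 and 205, and Slc25a21, a mitochondrial carrier gene, 176, 284, 132 and 193. A member in Srp54a, a signal recognition particle gene listed at 2 or more places, had 203, 297, 198 and 262 and is uncertain because copies can share reads. Over the 11 most-read members described here the log2 usage difference lay between -0.18 and 0.14, with SE of 0.30 to 0.36. The level of Prim2 changed by -0.79 on the log2 scale (SE 0.12, adjusted p = 0.00981 in edgeR).

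Across the whole set, no usage difference was called. Usage was tested with edgeR's diffSpliceDGE, which compares the change of a junction with that of the other known junctions of its gene, for the 850 members that had 10 or more reads and a second such junction in the gene. At an adjusted p under 0.05, 0 of 850 were called, and 2 of all 103312 tested junctions were (0.00194%). At an unadjusted p under 0.05 there were 27 members (18 higher and 9 lower in KO, 3.18%) against 2.38% of all tested junctions. The diffSplice test of limma also called 0 and gave 14 at an unadjusted p under 0.05.

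Usage of both KO libraries lay above both WT libraries for 152 members (17.9%, against 16.3% of all tested junctions) and below for 154 (18.1%, against 15.2%). Together that is 36.0% against 31.5%. The median log2 difference was -0.03 for the members and 0.01 for all junctions, and the quartiles were wider for the members (-0.53 and 0.45, against -0.34 and 0.36). Of the 181 members of 100 kb and over, 11 (6.08%) had an unadjusted p under 0.05, and of those of 50 to 100 kb 16 of 669 (2.39%).

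Read depth went with these small p-values. Of the 158 tested members with 100 or more reads, 1 (0.633%) had an unadjusted p under 0.05, against 1.15% of all junctions of that depth. Of the 478 with 10 to 39 reads, 22 (4.60%) did, against 3.96%. Several of the largest fitted differences belonged to junctions with no read in one genotype, such as Psd3 (0, 0, 8 and 9 reads) and 5033411D12Rik (0, 0, 9 and 11), which could enter the test only through the other genotype.

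**Figure D2:**
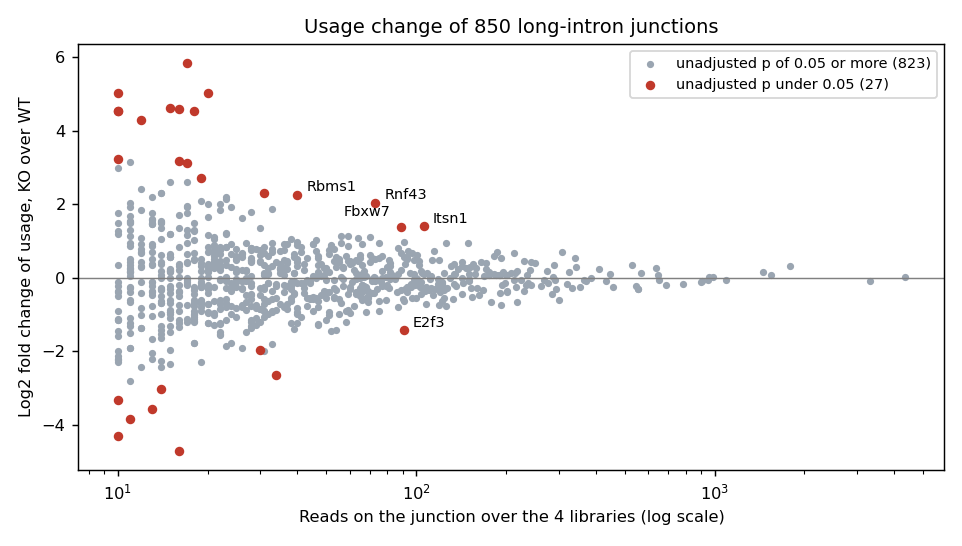
Log2 fold change of usage, KO over WT, against the reads of each of the 850 tested members on a log scale. The 27 members with an unadjusted p under 0.05 lay mostly at few reads, and the 5 with 40 or more reads are named.

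Those 5 were singled out after their values were seen, as members with 40 or more reads, an unadjusted p under 0.05 and no overlap. All had an adjusted p of 1.00 in edgeR. The joins of the 4 that have a coding match are these, with the downstream exon in capitals.
Rbms1 intron 1 (2, 60680529 to 60800748, minus strand): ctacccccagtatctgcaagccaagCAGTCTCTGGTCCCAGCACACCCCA
E2f3 intron 1 (13, 30012094 to 30077169, minus strand): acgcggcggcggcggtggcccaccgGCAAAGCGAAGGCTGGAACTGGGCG
Rnf43 intron 2 (11, 87478369 to 87531880, plus strand): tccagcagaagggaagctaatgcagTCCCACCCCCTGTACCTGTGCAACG
Fbxw7 intron 4 (3, 84708001 to 84758797, plus strand): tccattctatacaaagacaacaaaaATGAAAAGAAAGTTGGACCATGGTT
Itsn1, an endocytic scaffold gene, has its member in the 5′ untranslated region.

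Itsn1 had 11 and 16 reads in WT and 40 and 39 in KO across its first intron of 52562 bases, a share of 3.86% ± 0.387 in WT and 10.2% ± 2.38 in KO (SD, n = 2). The log2 usage difference was 1.40 (SE 0.52). The level of the gene differed by -0.12 (SE 0.12, edgeR, adjusted p = 0.50). Both KO counts on this intron thus exceeded both WT counts while no change of the gene was called. Rbms1, an RNA-binding protein gene, had 2, 4, 16 and 18 reads across 120219 bases, a log2 usage difference of 2.27 (SE 0.89). Its acceptor is also joined from a nearer donor 38646 bases away by 47, 76, 75 and 68 reads. The long junction took 4.54% ± 0.649 of the reads at that acceptor in WT and 19.3% ± 2.37 in KO (SD, n = 2), with no overlap.

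E2f3, a transcription factor of the cell cycle, was the one of the 5 with lower usage in KO. Its first intron of 65075 bases had 26, 33, 17 and 15 reads, a share of 32.8% ± 5.43 in WT and 12.2% ± 3.07 in KO (SD, n = 2) and a log2 difference of -1.43 (SE 0.59). Fbxw7, a substrate receptor of a ubiquitin ligase, had 5, 14, 27 and 43 reads across 50796 bases, a log2 difference of 1.39 (SE 0.65). Rnf43, a membrane ubiquitin ligase that removes Wnt receptors, had 0, 6, 29 and 38 reads across 53511 bases. Its log2 usage difference of 2.04 (SE 0.84) moved to 6.83 without WT replicate 2, which left only the WT library with no read, and to 1.06 without WT replicate 1. The level of Rnf43 rose by a log2 change of 0.83 (SE 0.14, edgeR, adjusted p = 0.0120), a call lost without WT replicate 2 and without KO replicate 2.

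The longest detected introns were crossed by few reads. Immp2l, a subunit of a mitochondrial inner membrane peptidase, had 4, 10, 8 and 8 reads across 892221 bases. The gene had only 12, 27, 13 and 18 reads on known junctions, and this member was not matched to a GENCODE intron. Magi1, a scaffold protein of cell junctions, had 7, 8, 7 and 6 across 339690 bases, Rad51l1, a homologous recombination gene, 0, 7, 4 and 0 across 330420 bases, and Smyd3, a methyltransferase gene, 2, 3, 1 and 5 across 310881 bases. A member in Gm13152 (334849 bases; 6, 3, 1 and 1 reads) matched no GENCODE intron and lies in a family of near copies, so it is uncertain. The 3 with a coding match join these exons.
Magi1 intron 1 (6, 93893314 to 94233004, minus strand): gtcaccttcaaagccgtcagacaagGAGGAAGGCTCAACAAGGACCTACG
Rad51l1 intron 7 (12, 80428391 to 80758811, plus strand): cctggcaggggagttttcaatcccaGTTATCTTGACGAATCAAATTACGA
Smyd3 intron 5 (1, 181024533 to 181335414, minus strand): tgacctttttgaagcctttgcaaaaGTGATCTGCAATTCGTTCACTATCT
The share of the gene's reads was 35.2% ± 2.62 in WT and 53.0% ± 12.1 in KO for Immp2l, and for Magi1 10.3% ± 4.05 and 3.90% ± 0.489 (SD, n = 2). The genotypes overlapped in neither gene, and with SE of 0.96 and 1.05 on the log2 scale neither difference could be told from the spread at this depth.

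Genes with 3 or more long introns let members be compared within a gene. Adk, which encodes adenosine kinase, had 4, with 48, 62, 56 and 50 reads on intron 3, 19, 89, 92 and 51 on intron 4, 19, 34, 18 and 16 on intron 6 and 49, 136, 72 and 114 on intron 7. The usage of introns 3, 4 and 7 overlapped between the genotypes, and on intron 6 both KO values were below both WT values (2.20% ± 0.0244 and 1.33% ± 0.507, SD, n = 2). Snd1, a nuclease and RNA-binding protein gene, had 10, 24, 14 and 11 reads across 80502 bases, 45, 120, 105 and 116 across 50503 bases and 87, 117, 126 and 126 across 78923 bases. The reads of neighbouring introns of 1 gene thus differed several-fold in the same library. In Slc25a21, reads over the 4 libraries fell from 785 on intron 4 to 195 on intron 3, as numbered in a transcript of 10 introns. The long intron directly upstream of these, of 268560 bases and first in another transcript of 9 introns, had 111.

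Where a member shares a donor or an acceptor with another known junction, the share of the site's reads that it takes was followed. There were 64 such shares for 56 members, 22 at donors and 42 at acceptors. Both KO shares were above both WT shares at 12 (18.1% over 2885 such shares of known junctions of every length) and below at 12 (17.9%), and they overlapped at 40. Over all such shares, 35.9% did not overlap. The shares are not independent. Where both junctions at a site are members, 1 shift is counted once above and once below, as at the Sox6 donor and the acceptors of Gng12, Taok3 and Tmem164. No test beyond these counts was made of single sites. At an acceptor the competing donors can belong to alternative first exons. Such sites were not told apart from the others, so a share need not measure a splicing choice.

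Sox6 and Foxp1 show how close the acceptors joined to a shared donor can lie. Sox6 encodes a transcription factor that silences embryonic globin in red cell precursors, and 1 donor is joined to 2 acceptors 3 bases apart. Foxp1 encodes a forkhead transcription factor, with acceptors 96 bases apart. The 4 joins are as follows, with the bases that follow each acceptor in capitals.
Sox6 intron 7 (7, 122741130 to 122803030, minus strand): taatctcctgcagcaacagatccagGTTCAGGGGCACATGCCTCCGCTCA
Sox6 intron 7 (7, 122741133 to 122803030, minus strand): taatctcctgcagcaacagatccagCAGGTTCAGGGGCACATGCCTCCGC
Foxp1 intron 4 (6, 99025943 to 99112833, minus strand): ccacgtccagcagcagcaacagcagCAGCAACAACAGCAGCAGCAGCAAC
Foxp1 intron 5 (6, 99026039 to 99112833, minus strand): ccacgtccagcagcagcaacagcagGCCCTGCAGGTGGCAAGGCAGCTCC
In Sox6 the nearer acceptor, of the intron of 61897 bases, adds the 3 bases CAG at the start of the exon.

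Across the Sox6 intron of 61900 bases there were 61 and 125 reads in WT and 82 and 74 in KO, and across that of 61897 bases 26, 48, 16 and 26. The farther acceptor took 71.2% ± 1.51 of the reads in WT and 78.8% ± 6.84 in KO (SD, n = 2). The KO values of 83.7% and 74.0% lay above the WT values of 70.1% and 72.2%, the closest pair by less than 2 points. In Foxp1 the long intron of 86890 bases, with 120, 148, 128 and 156 reads, took 97.3% ± 2.89 of the donor's reads in WT and 98.2% ± 1.69 in KO (SD, n = 2). A further Foxp1 member, of 59189 bases, met a nearer donor at its acceptor and had 13, 18, 6 and 19 reads against 12, 4, 0 and 0 on the junction of 11499 bases. The nearer donor thus had no read in either KO library, where 6 and 19 reads lay on the long junction. As a share of the gene's junction reads, this member was lower in KO, at 1.82% and 4.21% against 5.26% and 5.13% in WT. Its log2 usage difference was -0.69 (SE 0.71).

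The other shared sites with most reads were mostly in 5′ untranslated regions, where alternative first exons are common. In Raly the long junction skips an exon that the introns of 29459 and 36180 bases include. It took 22.4% ± 2.17 of the donor's reads in WT and 21.6% ± 4.23 in KO, and 37.6% ± 5.89 and 36.9% ± 3.46 of the acceptor's (SD, n = 2). Lims1, a focal adhesion adaptor gene, took 86.3% ± 9.49 and 91.7% ± 0.874 at its acceptor, and Sgms1, a sphingomyelin synthase gene, 83.9% ± 14.4 and 72.5% ± 8.32. Celf1, an RNA-binding splicing regulator, took 43.9% ± 5.45 and 51.7% ± 16.1 at its donor. The genotypes overlapped at each of these 4 genes. In Rffl, a ubiquitin ligase gene, they did not. Its member had 21, 63, 58 and 41 reads against 19, 34, 21 and 24 on 1 of the 2 other junctions at its acceptor. It took 53.5% ± 12.5 and 66.9% ± 5.41 of the acceptor's reads. Both KO values lay above both WT values, the closest being 62.4% in WT replicate 2 and 63.1% in KO replicate 2. The usage of this member within its gene overlapped between the genotypes.

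The genotypes also did not overlap at the following sites, whose members had fewer reads and which were chosen after their values were seen. Sites of members with similar reads also included ones that overlapped, such as the Pacsin2 acceptor (112 reads) and the Ppap2a donor (94 reads). In Gng12, a G protein gamma subunit gene, 2 long introns met at 1 acceptor. That of 71848 bases had 13, 25, 12 and 18 reads and that of 101215 bases 8, 16, 18 and 21, so the longer one took 38.6% ± 0.657 in WT and 56.9% ± 4.35 in KO (SD, n = 2). Ptk2, which encodes focal adhesion kinase, had 9, 18, 30 and 34 reads on its member against 3, 11, 2 and 8 on the competing junction, or 68.5% ± 9.14 and 87.4% ± 9.05 of the donor's reads. Taok3, a kinase gene, had 9, 28, 14 and 7 against 1, 12, 10 and 12, or 80.0% ± 14.1 and 47.6% ± 15.2.

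**Figure D3:**
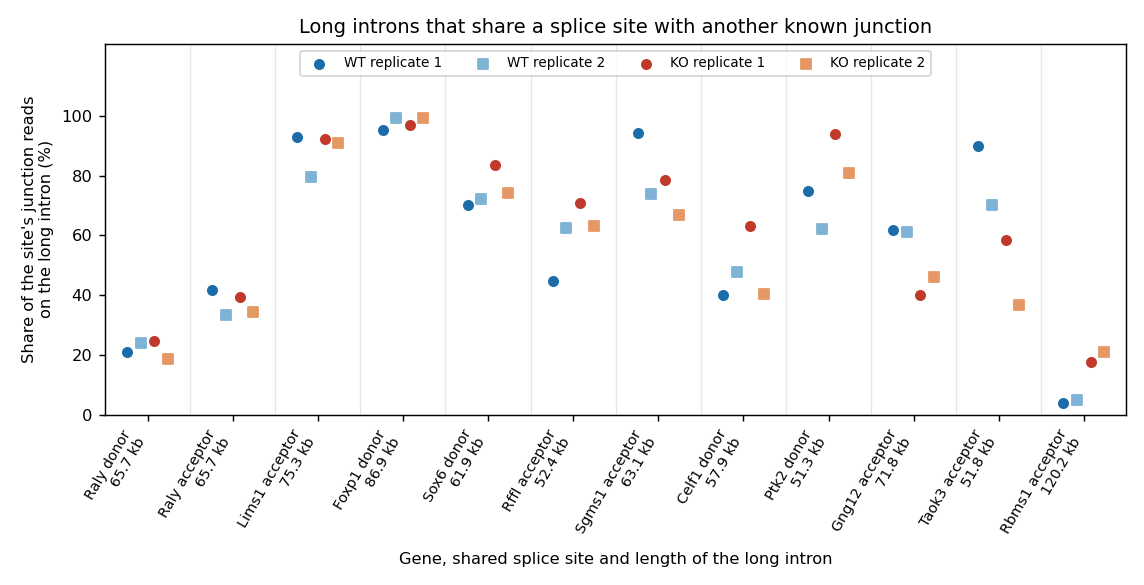
Share of the reads at a shared donor or acceptor that lay on the long intron, in percent, 1 point per library, for 12 sites with the length of the long intron. Ptk2, Gng12, Taok3 and Rbms1 were chosen after their values were seen. Raly, Lims1, Foxp1, Sgms1 and Celf1 overlapped between genotypes, while Sox6, Rffl, Ptk2 and Rbms1 lay higher and Gng12 (71848 bases) and Taok3 lower in both KO libraries.

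As a share of all known junction reads, long introns took 0.264% and 0.269% in WT and 0.277% and 0.302% in KO. The means were 0.266% ± 0.00314 and 0.289% ± 0.0175 (SD, n = 2), and both KO values were above both WT values. The exact two-sided permutation test gave p = 0.333, the smallest that 2 against 2 libraries allow. Gpc3 and Reln moved with this share: without them the libraries had 0.244%, 0.247%, 0.242% and 0.262%, the genotypes overlapped and the difference went from 0.0228 to 0.00618 percentage points. Both were chosen after their values were seen, as genes that were higher in KO. Without the 2 genes with most reads on long introns, Gpc3 and Epb4.1, the libraries had 0.238%, 0.239%, 0.242% and 0.262%, which did not overlap, a difference of 0.0137 points. Without the 10 genes with most known junction reads it was 0.0248 points. Averaged over the 949 genes with a long junction and at least 40 junction reads, the part of a gene's reads on long introns was 12.0% in WT and 11.8% in KO, so here the KO value was the lower one (difference of -0.164 points, exact permutation p = 0.333).

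The genes that hold these introns were called higher in KO at a larger share than all genes, a difference in calls that was nearly absent without KO replicate 2. Of 649 genes with a member of 10 or more reads, 648 passed the expression filter, 134 were higher in KO (20.7%, against 11.4% of all 15028 tested genes) and 55 were lower (8.49%, against 9.44%) in edgeR's test at an adjusted p under 0.05. In all 189 were called (29.2%, against 20.8%). The genotypes did not overlap for 71.5% of them, against 65.2% of all genes. Their median log2 difference was 0.11, and that of all tested genes 0.02. Without KO replicate 2 these medians were 0.048 and 0.005, so the shift of the median was reduced. Reads were summed over WT and KO libraries to find the host genes. A gene that rose in KO could thus enter through its KO reads, and one that fell through its WT reads. All tested genes did not have to meet this read minimum, and its part in these shares was not tested.

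Sorted by the longest junction of the gene, the percent of genes called higher went from 11.2% under 1 kb through 15.4% at 20 to 50 kb and 18.9% at 50 to 100 kb to 25.4% at 100 kb and over (44 of 173). The percent called lower did not follow it and was 6.99%, 12.5%, 9.05% and 6.94%. Most of these calls were lost without KO replicate 2, the library of the other sex. Without it, 32 of the host genes were called higher (4.93%, against 4.42% of all genes) and 19 lower, and the classes from 20 kb up had 5.08%, 4.00% and 7.51% called higher. Without KO replicate 1 there were 123 higher (19.0%, against 8.47%) and 39 lower. Without WT replicate 1 there were 61 higher (9.40%, against 6.44%) and 21 lower, and without WT replicate 2 44 higher (6.79%, against 4.15%) and 20 lower, in each case with 1 lone library assumed to vary like the rest. The part of sex in these counts was not tested, nor that of the read minimum, which also decided the length class of a gene.

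**Figure D4:**
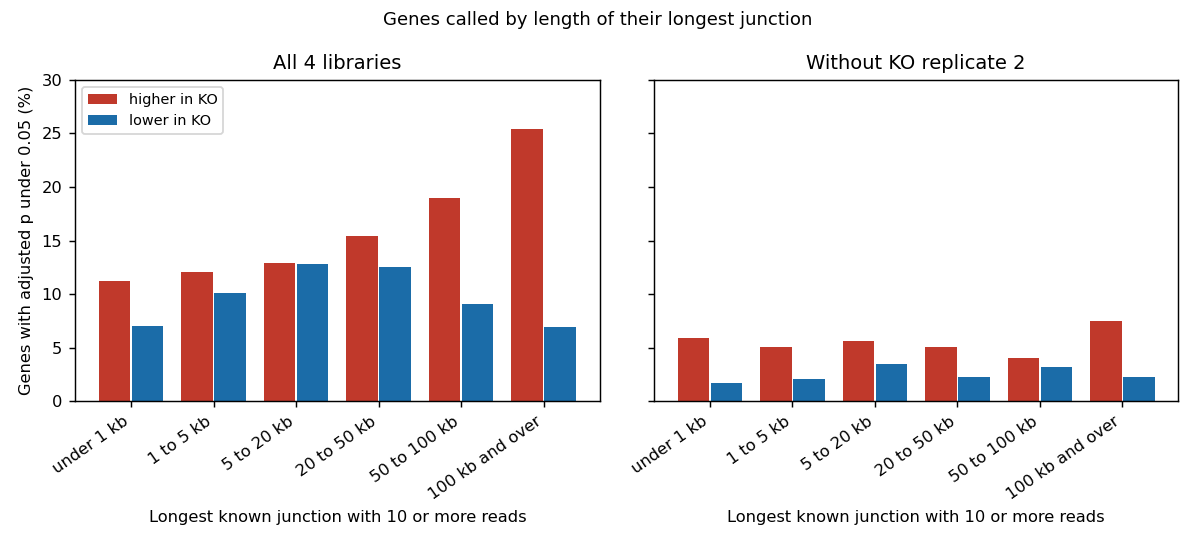
Percent of genes called higher or lower in KO at an adjusted p under 0.05, by the length of the longest known junction of the gene with 10 or more reads. With all 4 libraries the red bars rise from 11.2% to 25.4%, and without KO replicate 2 they lie between 4.00% and 7.51%.

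In these bulk samples fewer cells of a type and less RNA per cell cannot be told apart. Summed levels of 10 erythroid markers were 40110 and 37275 CPM in WT and 25188 and 19842 in KO, with 6 of 10 lower, and those of 8 hepatocyte markers 48405, 36159, 77219 and 68068, with 3 of 8 higher. Those of 5 endothelial markers were 381, 421, 607 and 657, with 3 higher, and those of 5 stellate and mesenchymal markers 469, 443, 547 and 668, with 1 higher. Those of 6 megakaryocyte markers were 540, 584, 1031 and 874, with 4 higher, and those of 6 granulocyte markers 490, 433, 914 and 734, with 3 higher. Those of 6 macrophage markers were 372, 295, 278 and 230, with 1 higher and 1 lower, and those of 8 cardiac markers 56.3, 262, 7.27 and 9.47, with 7 lower. No marker listed was at 0 in all libraries. Of the neuronal markers 0 of 2 tested were called, and of the lymphoid markers 1 of 3 tested was lower. Among all tested genes 11.4% were higher and 9.44% lower. The part of the marker shifts in the host gene levels was not tested.

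Among adhesion, receptor and matrix genes, many of the host genes rose. Of 29 with a tested level, 14 were higher and 1 lower in KO, with a median log2 difference of 0.41. That is 48.3% higher and 3.45% lower, against 11.4% and 9.44% of all tested genes and 20.7% and 8.49% of all host genes. The rises included Robo1 (log2 change 0.93, edgeR, adjusted p = 0.00673), a guidance receptor gene, Fndc3b (0.86), Tspan9 (0.79), a tetraspanin gene, Ghr (0.68), the growth hormone receptor, Nrp1 (0.63), a co-receptor for semaphorins and VEGF, and Cdh2 (0.58), which encodes N-cadherin. Gpc4, another glypican gene, was the one that fell, by 0.65 on the log2 scale. Without KO replicate 2 the count was 6 of 29 higher, where 4.42% of all genes were, and over the other single libraries left out it was 5 to 11, where 4.15% to 8.47% of all genes were. The list had 0 lower in each. Of the 14 rises, 4 were called with every single library left out, those of Robo1, Tspan9, Ghr and Nrp1, and the fall of Gpc4 was called in none. The endothelial and mesenchymal marker sums given above were higher in the same 2 libraries, and their part in these counts was not tested.

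Among genes of small GTPase regulators and the cytoskeleton, 14 of 45 were higher (31.1%, against 11.4% of all genes and 20.7% of host genes) and 3 lower (6.67%, against 9.44% and 8.49%), with a median of 0.18. Myo1e, a class I myosin gene, had a log2 change of 1.36, Pard3, a polarity protein gene, 0.90, Spnb2, the general beta spectrin, 0.86, Magi1 0.75 and Tln2, a talin gene, 0.74. The 3 that fell were Spnb1 (by 0.68), Dock10 (by 0.56) and Diap3 (by 0.48), so the red cell spectrin and the general spectrin genes went in opposite directions. Without single libraries the list had 4 to 14 higher and 0 to 2 lower. Of the 14 rises 4 were called throughout, those of Pard3, Spnb2, Tln2 and Dst, while those of Myo1e and Magi1 and each of the 3 falls were lost at least once.

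The other lists can be read against the same shares. Ion channels, pumps and transporters had 5 of 13 higher (38.5%) and 2 lower (15.4%), the rises including Itpr2 (0.80), a calcium release channel gene. Transcription factors and co-regulators had 7 of 42 higher (16.7%, between the shares of all genes and of host genes) and 2 lower, with a median of 0.22, among them Tox (0.96) and Nr3c2 (0.94), the mineralocorticoid receptor. Kinases and phosphatases had 6 of 35 higher (17.1%) and 3 lower (8.57%), with Ptprk (0.91) and Prkca (0.70) among the rises. No chromatin or DNA modification gene of 17 was higher and 4 were lower (23.5%), Cdyl (by 0.65), the cohesin genes Stag2 (by 0.58) and Stag1 (by 0.40), and Mllt3 (by 0.46). Of 13 RNA-binding and splicing genes 1 was higher, the splicing regulator Rbfox2 (0.59), and 1 lower, Tnrc6b (by 0.65). Ubiquitin and protein turnover genes had 1 of 20 higher and 3 lower.

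Of these named genes Ptprk, Prkca and Cdyl were called with every single library left out, while the calls of Mllt3 and Stag1 were lost in all 4 such fits and those of Itpr2, Tox, Nr3c2, Stag2, Rbfox2 and Tnrc6b in at least 2. With single libraries left out, the transcription factors had 1 to 14 higher, the kinases 2 to 5, the channels and transporters 0 to 3, and the chromatin genes 1 to 2 lower. The lists cover 214 of the 649 host genes.

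The largest rises among host genes began with 9030617O03Rik, at 5.36 and 4.03 CPM in WT and 19.0 and 19.6 in KO, a 4.14-fold level (log2 2.05, SE 0.19, edgeR, adjusted p = 0.00446). Odz3, which encodes the adhesion protein teneurin-3, was at 33.1, 38.9, 75.4 and 102 CPM, 2.46-fold. Plcg2, a phospholipase of immune receptor signalling, was at 15.8, 16.8, 33.4 and 41.0 CPM, 2.29-fold. Groups did not overlap in any of these genes. Agmo, an enzyme that cleaves ether lipids, was 2.12-fold. The rule also named Myo1e (2.57-fold), Tnik (2.08-fold), a kinase gene, Ccbe1 (2.07-fold), a lymphatic growth gene, Ugt1a6b (2.06-fold), a glucuronidation enzyme gene, and Csgalnact1 (2.00-fold), an enzyme of chondroitin sulphate synthesis. Each of those 5 calls was lost without at least 1 library, with adjusted p up to 0.0960, and Ugt1a6b shares exons with other genes of its locus, so its value is uncertain.

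The falls were led by Macrod1, a hydrolase of ADP-ribose on proteins, at 6.50 and 5.94 CPM in WT and 2.53 and 1.97 in KO, 0.362 of WT (log2 -1.47, SE 0.23, edgeR, adjusted p = 0.0101). Runx1t1, a transcriptional co-repressor, was at 62.4, 48.2, 24.9 and 23.1 CPM, 0.434 of WT. Nmnat3, an enzyme of NAD synthesis, was at 61.4, 59.2, 27.9 and 29.5 CPM, 0.476 of WT. Sox6 was at 315, 296, 175 and 158 CPM, 0.545 of WT (log2 -0.88, SE 0.12, edgeR, adjusted p = 0.0080). Both KO libraries lay below both WT libraries in each. Cntn3, Sgk3, Pip5k1b, Btrc, Cenpp and Dapk2 were at 0.494 to 0.570 of WT, and of the 10 only the call on Cntn3 was lost in an alternative, without WT replicate 1 and without KO replicate 2. In none of these genes was the usage of a long intron called.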

How the data were processed

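RNA-seq libraries of fetal liver cells from 2 WT and 2 KO mice were compared. The authors deposited, per library, counts of reads for each RefSeq transcript and, in a second table without a header, counts of reads for each splice junction, marked known or putative. Per the file headers, these counts take primary alignments only, with a minimum mapping quality of 10, a minimum score of 0 and a score clear zone of 5. The transcript tables also hold deposited RPKM and a deposited coverage signal in reads per nucleotide, neither of which entered a test. The sources used here do not give the aligner, genome build, junction counting or strand handling, so overlapping genes can share reads.

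The start and end of a junction are the last base of the upstream and the first of the downstream exon. Usage was tested with diffSpliceDGE of edgeR 4.0.16 (R 4.3.3) on known junctions with a total of 10 or more reads, where the gene had 2 or more of these, with TMM scaling, and p-values were adjusted by Benjamini-Hochberg over 103312 junctions. Gene levels were tested with edgeR's quasi-likelihood test on the transcript with most reads of each gene, after filterByExpr, over 15028 genes. CPM are on TMM-scaled library sizes, fold changes are KO over WT, and the threshold was an adjusted p of 0.05. An SE is the size of a log2 change divided by the square root of its F statistic. The exact two-sided permutation p of 2 libraries against 2 is at least 0.333.

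Named junctions were the 12 with most reads, the 5 longest, any called, the 8 with most reads at shared splice sites, those of up to 6 genes with 3 or more and the 2 with most reads of each gene list. Named genes were up to 10 higher and 10 lower, called, with mean log2 CPM no lower than 2, no overlap and the largest fold. Genes named from the lists beyond these, and the shared sites of Gng12, Ptk2 and Taok3, were chosen after their values were seen. A few genes so named are not reported here. The members and lists were chosen with earlier results of these data known. Alternatives used limma 3.58.1, DESeq2 1.42.0, other scaling, filters and lengths, a replicate block, and each library left out. Tests were tried on simulated data, for usage only with changes far larger than those of the most-read members. That trial does not show whether differences as small as theirs would be called. Depth was 70020061 to 111324295 mapped reads a library.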

Additional observations from a re-analysis of the deposited data

How the results depend on the processing

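Usage of long-intron junctions was called for 0 members in every alternative run. The count at an unadjusted p under 0.05, 27 in the reported test, was 11 to 57 with single libraries left out, 14 with limma, 48 with no filter beyond 1 read, 4 at 40 or more reads, 42 for introns of 30000 bases or more and 11 for 100000 or more. Host genes called higher and lower numbered 32 to 123 and 19 to 39 with single libraries left out, and 44 and 12 for introns of 100000 bases or more. DESeq2 gave 145 and 71, limma 129 and 59. The cause of these shifts was not tested, beyond fewer or other junctions entering at other lengths and filters. The difference in the share of reads on long introns was 0.0104 to 0.0351 points with single libraries left out, -0.164 as a mean over genes, and, in an alternative chosen after seeing the data, 0.00618 without Gpc3 and Reln.

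With the number shared in the file names of 1 WT and 1 KO library as a replicate block, 163 host genes were higher and 80 lower, 0 usage calls were made and 21 members had an unadjusted p under 0.05. Within-group differences of libraries with the same number correlated across genes at 0.136 for levels and -0.0235 for usage, and with 2 pairs these numbers are not taken to pair the mice. For the single genes and junctions named, no called value changed direction, 39 alternatives took a called gene level past the threshold of 0.05 and 13 brought an uncalled one under it. Few reads limit most members: their median was 32 over the 4 libraries against 68 for other junctions of 10 or more reads.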
